A study of Mus musculus with 6 samples.

Results

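The Ighv1 segments, also called the J558 family, are heavy chain variable (V) gene segments of the mouse immunoglobulin heavy chain locus. They were taken as every gene identifier whose name begins with Ighv1 followed by a hyphen and a digit, which gave 93 identifiers of the 54752 listed, and 93 of the 185 listed Ighv segments. The messenger RNA of sorted bone marrow pro-B cells was compared between 3 Skiv2l-deleted mice (Skiv2lfl/fl-Cd79a-Cre) and 3 control mice (Skiv2lfl/fl), 1 library per mouse. All 6 mice were adult C57BL/6 animals, all carried floxed Skiv2l alleles, and no treatment was named. The Cre was driven by Cd79a, a gene of the B lineage, and the labels name no Cre for the controls, so the Cre and the loss of Skiv2l cannot be told apart. Levels are FPKM, the authors' values per transcript length and library size.

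A heavy chain variable exon is assembled from 1 V, 1 D and 1 J segment by the RAG recombinase, first D to J and then V to DJ in pro-B cells. The V segments line up upstream of the D segments, and Ighv1, the largest mouse family, fills the part of the locus farthest from them. Bringing these distal segments to the DJ joint is known to need contraction of the locus. Pax5, Yy1, Ezh2 and IL-7 receptor signalling are described for the rearrangement of distal segments, not all of them through contraction. An unrearranged V segment can be transcribed from its own promoter (germline transcription), and a rearranged one is transcribed as part of the mu heavy chain message. Both kinds of RNA carry the same V exon, so the deposited values of a segment cannot separate them. The product of Skiv2l is an RNA helicase that passes RNA to the exosome of the cytoplasm for decay.

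In the GRCm38 build the family ran over 1.66 Mb of chromosome 12, chr12:114351705-116010093, with 92 of the 93 identifiers on the minus strand. All Ighv segments together spanned 2.44 Mb, chr12:113572927-116010093, and the constant gene Ighm lay at chr12:113418558-113422730, 0.929 Mb from the nearest Ighv1 segment. A higher coordinate therefore means a place farther from the D segments. The annotation called 53 members functional V genes and 39 V pseudogenes. The remaining identifier, 1 of the 2 named Ighv1-13, lies antisense to the other on the plus strand.

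The members are close copies of each other, and their sequences set how far single values can be trusted. The last 150 bases of the V exon are shown for segments on which the results below turn, from the GENCODE transcripts of the GRCm38 build, all on the minus strand and written 5′ to 3′. Capitals mark bases that differ from Ighv1-26, the most abundant member. Ighv1-26 lies at chr12:114788372-114788521, Ighv1-9 at chr12:114583569-114583718, Ighv1-81 at chr12:115920279-115920428 and Ighv1-55 at chr12:115208095-115208244. The pseudogene Ighv1-62 lies at chr12:115371986-115372135, the pseudogene Ighv1-2 at chr12:114469075-114469224 and the pseudogene Ighv1-57 at chr12:115268424-115268573.
Ighv1-26: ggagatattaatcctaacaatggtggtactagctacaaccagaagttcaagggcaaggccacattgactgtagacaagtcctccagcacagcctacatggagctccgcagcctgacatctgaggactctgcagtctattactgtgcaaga
Ighv1-9: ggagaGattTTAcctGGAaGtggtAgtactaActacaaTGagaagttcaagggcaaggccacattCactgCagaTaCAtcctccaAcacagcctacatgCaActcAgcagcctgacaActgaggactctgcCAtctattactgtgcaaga
Ighv1-81: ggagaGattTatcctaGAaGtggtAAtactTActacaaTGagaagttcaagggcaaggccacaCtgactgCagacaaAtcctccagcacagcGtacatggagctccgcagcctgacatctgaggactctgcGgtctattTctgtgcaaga
Ighv1-55: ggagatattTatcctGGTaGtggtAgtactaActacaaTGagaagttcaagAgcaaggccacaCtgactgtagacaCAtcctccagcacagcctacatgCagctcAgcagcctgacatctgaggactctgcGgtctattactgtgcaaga
Ighv1-62: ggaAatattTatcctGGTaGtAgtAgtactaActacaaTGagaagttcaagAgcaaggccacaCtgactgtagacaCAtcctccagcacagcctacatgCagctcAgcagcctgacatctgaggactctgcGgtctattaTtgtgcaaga
Ighv1-2: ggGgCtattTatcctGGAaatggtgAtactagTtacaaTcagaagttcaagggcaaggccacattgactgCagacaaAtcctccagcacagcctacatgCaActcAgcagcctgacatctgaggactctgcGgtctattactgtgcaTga
Ighv1-57: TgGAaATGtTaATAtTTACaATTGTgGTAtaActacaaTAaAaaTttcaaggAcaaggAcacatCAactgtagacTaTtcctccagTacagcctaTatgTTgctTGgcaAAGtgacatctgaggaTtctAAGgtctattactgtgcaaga
Over these 150 bases Ighv1-9 differed from Ighv1-26 at 24 positions, Ighv1-81 at 17, Ighv1-55 at 16, Ighv1-62 at 19, Ighv1-2 at 16 and Ighv1-57 at 46. The exon closes with the codon of the conserved cysteine before the junction, and 62 of the 93 members ended in the same 9 bases, TGTGCAAGA. That ending was held by 44 of 53 functional members and 18 of 39 pseudogenes. The frame read back from the 3′ end over 97 codons was free of stops in 50 functional members and 4 pseudogenes. Ighv1-2 ends in a stop codon, visible above as its last capital.

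A closely related pair is shown because 1 of its members, Ighv1-15, was lower in deleted cells while the other, Ighv1-23, was not called. Here capitals mark the positions at which Ighv1-15 (chr12:114657353-114657502) and Ighv1-23 (chr12:114764450-114764599) differ from each other.
Ighv1-15: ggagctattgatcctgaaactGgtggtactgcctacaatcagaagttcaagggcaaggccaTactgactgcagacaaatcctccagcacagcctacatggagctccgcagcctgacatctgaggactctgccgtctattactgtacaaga
Ighv1-23: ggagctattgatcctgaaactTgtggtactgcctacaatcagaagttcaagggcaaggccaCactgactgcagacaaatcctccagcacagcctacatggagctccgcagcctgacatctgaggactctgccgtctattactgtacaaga
They differed at 2 of these 150 positions and at 7 over the 351 bases of the transcript. Of the stretches of 75 bases in each, 94.9% occurred in no other annotated transcript. The opposite case is Ighv1-62-2 (chr12:115446409-115446558) and Ighv1-71 (chr12:115742205-115742354), which share the following 150 bases without a difference.
Ighv1-71: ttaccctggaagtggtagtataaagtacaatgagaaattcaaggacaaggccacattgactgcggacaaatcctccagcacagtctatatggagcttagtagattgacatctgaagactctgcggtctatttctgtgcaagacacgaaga
This pair differed at 1 position over 359 bases, and 8.88% of the 75-base stretches of Ighv1-62-2 and 2.81% of those of Ighv1-71 were unique. Across the family, the nearest other member was 94.1% identical in the median over the last 290 bases, and 42 of the 93 members had a neighbour at 95% or more. Among the members tested below, the median share of unique 75-base stretches was 90.4%, and only this pair was under 25%. Reads can still be divided wrongly between copies, so sums over the family are more certain than single segments.

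The libraries matched their labels in part. Skiv2l itself had 9.53, 16.1 and 10.9 FPKM in Skiv2l-deleted libraries and 25.4, 20.2 and 46.3 FPKM in control libraries. Every deleted library was below every control, but the difference was not called (log2 fold change −1.21 ± 0.32 (SE), limma adjusted p = 0.063), and the sources used here do not say which part of the gene is floxed. Depth was read from the deposited coverage: 1 FPKM on a transcript of 351 bases, the most frequent length among members, stood for 612 to 842 aligned bases, with control 3 the shallowest and Skiv2l-deleted 3 the deepest library. Myeloid marker sums were 378, 2663 and 85.4 FPKM in deleted libraries and 135, 469 and 1478 FPKM in controls, high in Skiv2l-deleted 2 and control 3. Of 7 erythroid markers the sum was 202 FPKM in Skiv2l-deleted 2 and 3.75 to 8.37 FPKM in the other 5 libraries. The sums, shares and counts below are also given for the 4 libraries without Skiv2l-deleted 2 and control 3. Nothing in the sources says more of the mice than that they were separate, and the main tests compare 3 with 3 libraries. The limma p-values also draw on the variance of all genes tested.

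As a family, Ighv1 was lower in Skiv2l-deleted cells. The 93 segments summed to 179, 147 and 103 FPKM in Skiv2l-deleted libraries and 896, 838 and 558 FPKM in control libraries. All 3 deleted libraries were far below all 3 controls, and the lowest value of each genotype came from its library 3. The means were 143 ± 38.4 FPKM in deleted and 764 ± 181 FPKM in control libraries (SD, n = 3 each), a 5.34-fold lower level in deleted cells (log2 difference −2.42). An exact two-sided permutation test gave p = 0.1, the smallest that 3 against 3 allows, and 0.1 after Benjamini-Hochberg adjustment over 5 tests on sums and shares. In 4 libraries, without Skiv2l-deleted 2 and control 3, the log2 difference was −2.67. In these bulk samples, fewer cells carrying a segment's RNA and less of that RNA per cell cannot be told apart.

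**Figure D1:**
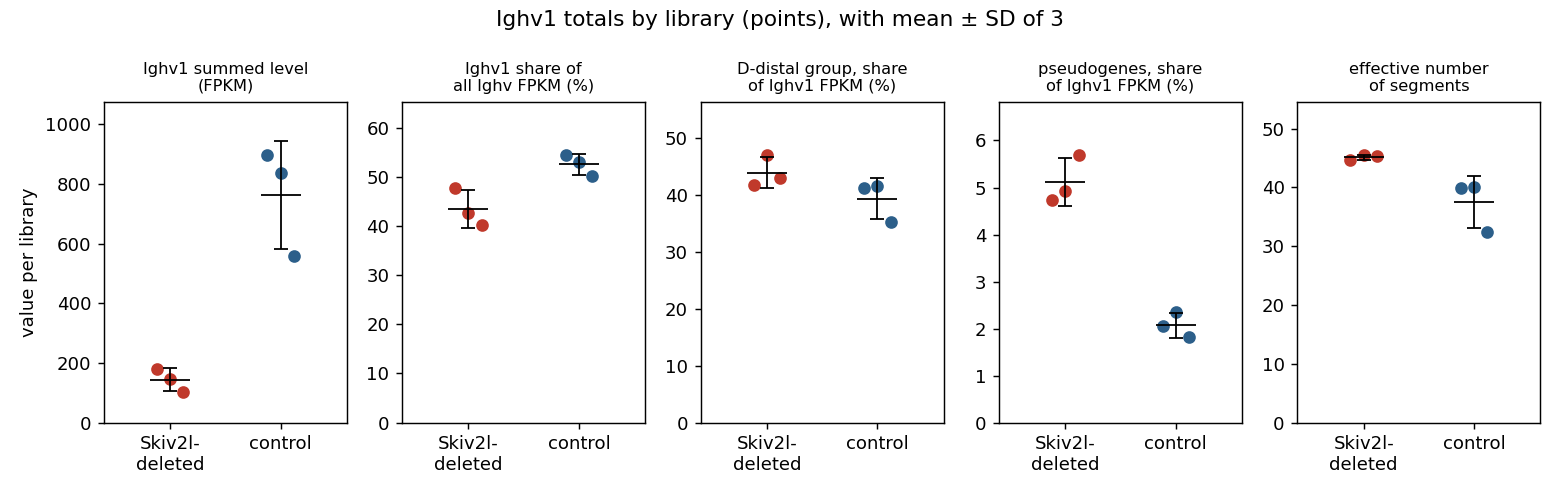
Each point is 1 library and the bars give the mean ± SD of 3, with Skiv2l-deleted libraries left of controls, for the summed Ighv1 FPKM, the Ighv1 share of all Ighv FPKM (%), the share of the D-distal group (the 31 members farthest from the D segments) and of pseudogenes in the Ighv1 sum (%), and the effective number of segments. In every panel the groups do not overlap, and the summed level was 143 ± 38.4 FPKM in deleted against 764 ± 181 FPKM in control libraries.

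Of the 93 members, 49 reached 1 FPKM in 3 or more libraries out of 6 and were tested, and the other 44 were not. Among the 49, 35 were lower in deleted cells and 0 were higher (limma adjusted p below 0.05 over all 13539 genes tested). Over all genes, 3.87% were lower, 4.97% higher and 8.84% called in either direction at that threshold. At an unadjusted limma p below 0.05, 46 members were lower and 0 higher, against 9.85% of all genes lower and 15.7% higher. The median log2 fold change was −1.89 over the 49 members and 0.0577 over all genes tested. The fit is on log2(FPKM + 1), which understates the change of low segments. Because 12 of the 49 reached the filter only through the controls, these figures are a description of the tested members. The other 37 had 1 FPKM or more in all 3 deleted libraries, and 26 of these were lower, with a median of −1.89. The count of lower members changed with the library left out: leaving out control 1, 2 or 3 gave 18, 20 or 44 lower members, and leaving out deleted library 1, 2 or 3 gave 18, 23 or 16. In the 4 libraries it was 44. Lower calls over all 13539 genes moved as well, from 524 in the main fit. They were 190, 263 or 757 without control 1, 2 or 3 and 115, 311 or 118 without deleted library 1, 2 or 3. The 4 libraries gave 788.

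Taking all 93 members with no filter, 47 had every deleted library below every control, 1 had every deleted library above, and 45 overlapped. Over all genes tested, every deleted library was below every control in 12.3%. Of the 49 tested members 44 were so placed. Of the 45, 18 were listed at 0 in all 6 libraries, 17 of these pseudogenes and 1, Ighv1-16, a functional segment. Ighv1-1, at the D-proximal end of the family, and the pseudogene at its D-distal end (chr12:116009659-116010093) were among those at 0.

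Ighv1-26 was the most abundant member in every library except Skiv2l-deleted 3. It had 13.9, 9.89 and 6.08 FPKM in deleted libraries and 80.0, 64.6 and 63.9 FPKM in controls. The highest deleted library was well under the lowest control (log2 fold change −2.74 ± 0.26 (SE), limma adjusted p = 0.00429). This segment is in the D-proximal part of the family, and it alone supplied 7.72% to 11.5% of the family's FPKM in controls.

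Ighv1-9, the second member in controls 1 and 2, had 5.04, 4.36 and 2.02 FPKM in deleted libraries against 53.5, 43.8 and 33.7 FPKM in control libraries (log2 fold change −3.25 ± 0.29, limma adjusted p = 0.00429). Ighv1-81, close to the D-distal end, had the most negative change of all tested members. Its levels were 2.76, 2.81 and 1.07 FPKM in deleted libraries and 47.8, 33.1 and 20.2 FPKM in controls (−3.41 ± 0.36, limma adjusted p = 0.00559), a 15.2-fold difference in mean FPKM. In both segments the groups were separated by a wide margin, although the controls themselves spanned a range of FPKM. Ighv1-19, with 3.47, 2.18 and 2.15 FPKM in deleted libraries and 37.8, 33.5 and 22.4 FPKM in controls, fell by 3.15 ± 0.23 on the log2 scale (limma adjusted p = 0.0031).

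Ighv1-55 had 3.10, 1.6 and 1.64 FPKM in deleted libraries and 23.7, 22.5 and 21.1 FPKM in controls. Its controls lay closer together than those of the other abundant segments, and the log2 fold change was −2.94 ± 0.20 (limma adjusted p = 0.00196). Ighv1-64 had 7.10, 4.44 and 2.31 FPKM in deleted libraries and 34.7, 37.3 and 49.6 FPKM in controls (−2.96 ± 0.32, limma adjusted p = 0.00608). Control 3, the lowest control for most members, was the highest for this one.

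Ighv1-18 fell by 2.29 on the log2 scale, and Ighv1-72 fell by 1.89. Ighv1-82 had 6.56, 6.79 and 3.75 FPKM in deleted libraries and 34.0, 32.0 and 12.9 FPKM in controls (−1.95 ± 0.38, limma adjusted p = 0.0267). It was called in the fit without control 3 but in none of the 5 others that left out 1 library (highest limma adjusted p = 0.102). Ighv1-53, the most abundant functional segment of the middle part after Ighv1-55, behaved alike in this respect: its change of −1.81 ± 0.42 (limma adjusted p = 0.0448) was called only without control 3 (highest 0.147). Ighv1-39 (−2.08 ± 0.39, limma adjusted p = 0.0241) was called without control 3 or Skiv2l-deleted 2 and not without any of the other 4 libraries. Ighv1-7 (log2 fold change −2.57), Ighv1-42 (−2.60) and Ighv1-12 (−2.47) fell too, and of these 3 Ighv1-12 lost its call without Skiv2l-deleted 3 (limma adjusted p = 0.0509). Over all 35 lower members, mean control FPKM was 3.10 to 15.2 times the deleted mean, with a median of 6.53.

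**Figure D2:**
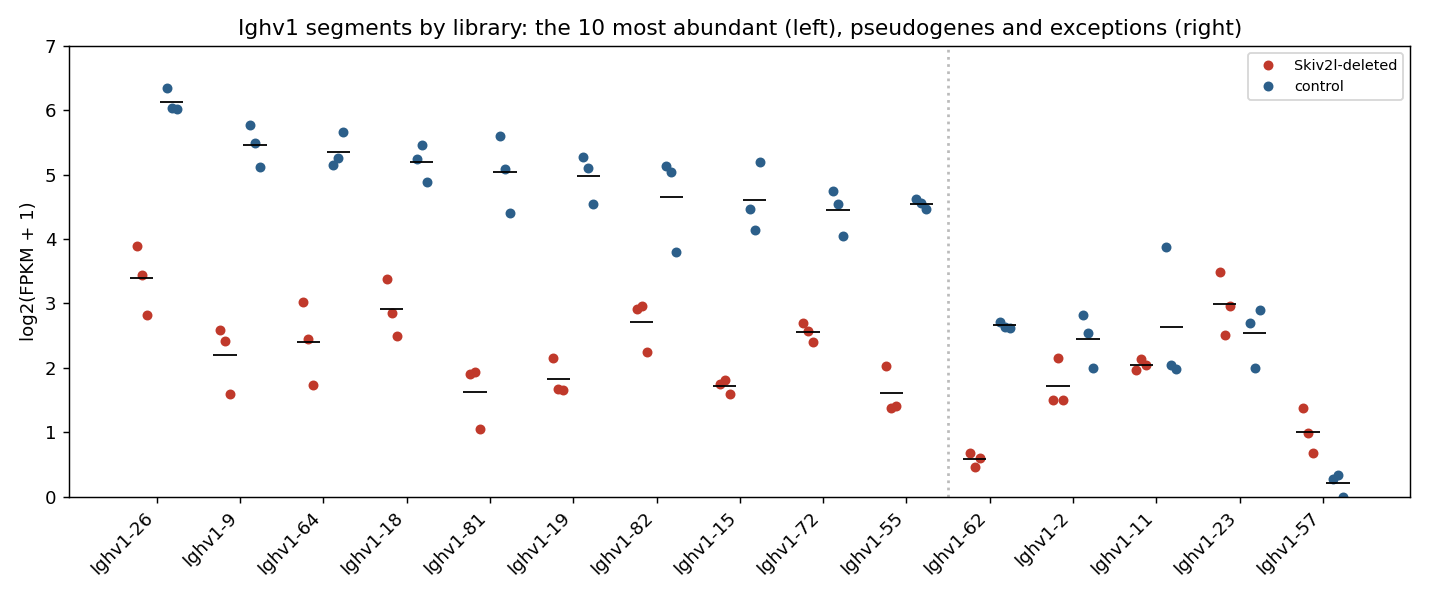
Points give log2(FPKM + 1) of each library and bars the mean of 3, with Skiv2l-deleted (red) left of control (blue) for each segment. The 10 most abundant members stand left of the dotted line, all with deleted below control libraries, and on the right are the pseudogenes Ighv1-62, Ighv1-2 and Ighv1-57 and the segments Ighv1-11 and Ighv1-23.

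Segments fell along the whole length of the family. The members were divided by coordinate into 3 groups of 31. The D-proximal group (chr12:114351705-114805041) summed to 69.0, 47.8 and 35.8 FPKM in deleted libraries and 350, 318 and 241 FPKM in controls, a 5.96-fold difference in means. The middle group (chr12:114809421-115312599) summed to 35.5, 30 and 22.9 FPKM in deleted and 176, 171 and 120 FPKM in control libraries, 5.29-fold. The D-distal group (chr12:115335082-116010093) summed to 75, 68.9 and 44.2 FPKM in deleted and 369, 349 and 196 FPKM in control libraries, 4.86-fold. Deleted and control libraries did not overlap in any of them. Of 13 tested D-proximal members 10 were lower, of 14 middle members 11, and of 22 D-distal members 14, with median log2 fold changes of −2.29, −1.87 and −1.69 in that order. The groups differed in make-up, with 15, 15 and 9 pseudogenes in the same order.

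The D-distal share of the family's FPKM was 41.8%, 47.0% and 43.0% in deleted libraries and 41.2%, 41.6% and 35.2% in controls. The deleted libraries were all above the controls, but Skiv2l-deleted 1 exceeded control 2 by little. The mean difference was 4.56 percentage points (exact two-sided permutation p = 0.1, the smallest possible), 2.49 without control 3 and 3.02 without Skiv2l-deleted 2, with p = 0.2 and 0.4 in these exact tests. Without both of these libraries it was 0.952 points. Across the 49 tested members, the log2 fold change and the coordinate had a Spearman rho of 0.199, given as a description because neighbouring and similar segments are not independent. The log2 fold change and the mean control FPKM had a rho of −0.787, and −0.64 with a pseudocount of 0.1 in place of 1. Here the control values enter both measures, and the pseudocount shrinks the change of low segments.

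**Figure D3:**
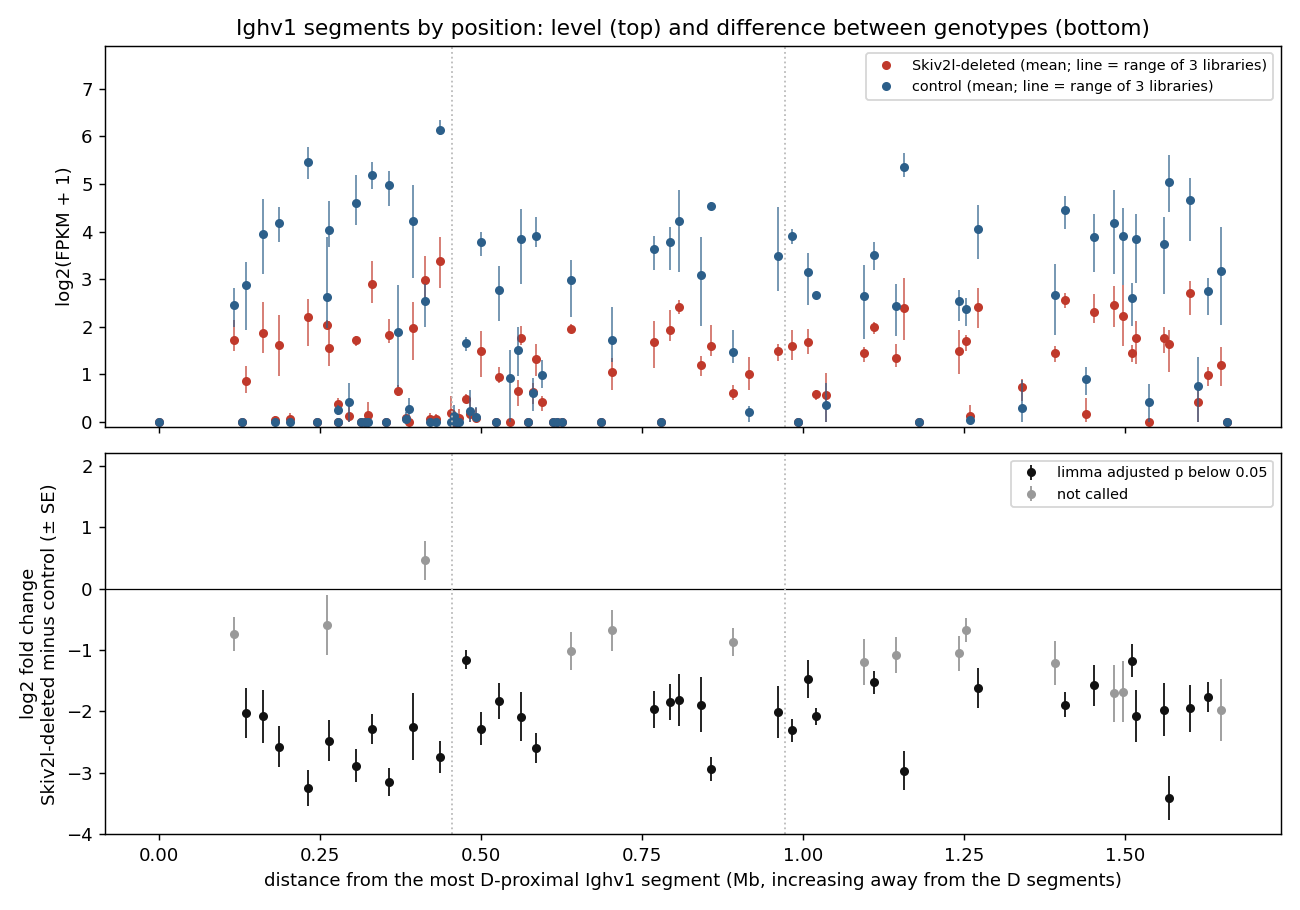
The horizontal axis is the distance of each of the 93 members from the most D-proximal one in Mb, and dotted lines separate the 3 groups of 31. The top panel gives log2(FPKM + 1) as mean and range of 3 Skiv2l-deleted (red) and 3 control (blue) libraries, and the bottom panel the log2 fold change ± SE of the 49 tested members, 35 of them called lower (black) and 14 not called (grey), with 1 point above 0.

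Within the family, pseudogenes took a larger share in deleted cells. The 39 pseudogenes summed to 8.50, 7.23 and 5.85 FPKM in deleted libraries and 18.4, 19.7 and 10.1 FPKM in controls, 2.23-fold lower in deleted libraries, with no overlap. The 53 functional segments were 5.52-fold lower. The pseudogene share was 4.73%, 4.93% and 5.69% in deleted libraries and 2.06%, 2.35% and 1.81% in controls. All deleted libraries lay above all controls, with a mean difference of 3.05 percentage points (exact two-sided permutation p = 0.1, the smallest possible), 2.76 to 3.24 points with any 1 library left out, and 3.01 points in the 4 libraries. Of the 47 functional members tested, 34 were lower, against 1 of the 2 pseudogenes tested, too few to compare. Only 3 of the 39 pseudogenes had a mean of 1 FPKM or more over the 6 libraries. Much of the pseudogene sum in deleted libraries thus came from low values. How far reads of close copies entered them was not tested.

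The pseudogene that fell was Ighv1-62, with 0.599, 0.382 and 0.519 FPKM in deleted libraries and 5.57, 5.24 and 5.17 FPKM in controls (log2 fold change −2.08 ± 0.14, limma adjusted p = 0.00196). Its values were even within each genotype. The sequence above resembles that of Ighv1-55, from which it differed by 12 edits over 350 bases, and 73.9% of its 75-base stretches were unique. The other tested pseudogene, Ighv1-2, had 1.83, 3.44 and 1.81 FPKM in deleted libraries and 6.05, 4.82 and 2.99 FPKM in controls. The groups overlapped by Skiv2l-deleted 2 and control 3, and the difference was not called (−0.74 ± 0.27, limma adjusted p = 0.149). Ighv1-38, the next most abundant pseudogene, was too low to be tested, with 0.675, 0.267 and 0.844 FPKM in deleted libraries and 1.94, 2.99 and 0.961 FPKM in controls.

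A few segments departed from the rest, and those named here were chosen after their values were seen. Ighv1-23 was the only tested member with a log2 fold change above 0. It had 10.3, 4.71 and 6.80 FPKM in deleted libraries and 5.49, 3.01 and 6.45 FPKM in controls. The groups overlapped, and the difference was not called (0.46 ± 0.32, limma adjusted p = 0.427). It ranked first in Skiv2l-deleted 3 and second in Skiv2l-deleted 1. Ighv1-15, its near copy shown above, had 2.36, 2.50 and 2.03 FPKM in deleted libraries against 21, 16.6 and 35.7 FPKM in controls and was lower (−2.88 ± 0.26, limma adjusted p = 0.00429). A test of the difference between the 2 segments was not run.

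The pseudogene Ighv1-57 was the only member with every deleted library above every control. Its levels were 1.59, 0.973 and 0.593 FPKM in deleted libraries and 0.210, 0.262 and 0 FPKM in controls, which stood for 1033, 678 and 496 aligned bases in deleted libraries and 144, 169 and 0 in controls. It failed the expression filter. In a fit of every gene above 0 in at least 1 library its log2 fold change was 0.81 ± 0.20, which limma did not call (adjusted p = 0.13). All of its 75-base stretches were unique (100%), and its exon is the most divergent of those shown.

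Ighv1-11 had 2.90, 3.40 and 3.11 FPKM in deleted libraries and 13.7, 3.13 and 2.94 FPKM in controls. Control 1 stood far above the other 5 libraries, which were alike, and the difference of −0.59 ± 0.49 was not called (limma adjusted p = 0.511). Ighv1-58 was lower (−2.01 ± 0.42, limma adjusted p = 0.0325), with 2.13, 1.88 and 1.42 FPKM in deleted libraries and 8.19, 5.77 and 21.8 FPKM in controls, the last value from control 3. Its call was kept without control 2 or control 3 and lost without any of the other 4 libraries (highest limma adjusted p = 0.12). Of 51 members at a mean of 1 FPKM or more, 4 held in 1 control library at least 2 times the share of the next control, namely Ighv1-58, Ighv1-11, Ighv1-15 and Ighv1-42. In deleted libraries 1 member did so, Ighv1-38.

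The 14 tested members that were not called had log2 fold changes between −1.97 and 0.46 and limma adjusted p between 0.0568 and 0.511, and in 9 of them every deleted library was below every control. Ighv1-62-2 and Ighv1-71, the nearly identical pair and also named after their values were seen, were among these. Ighv1-62-2 had 1.85, 2.0 and 1.41 FPKM in deleted libraries and 8.90, 6.50 and 2.34 FPKM in controls (limma adjusted p = 0.102). Ighv1-71 had 1.85, 2.01 and 1.41 FPKM in deleted libraries and 8.92, 6.22 and 2.57 FPKM in controls (limma adjusted p = 0.0834). The 2 segments' values were nearly equal in every library, and with sequences this alike they count as 1 measurement rather than 2.

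The FPKM was spread more evenly over the segments in deleted libraries. The effective number of segments, the exponential of the Shannon entropy of the members' shares, was 44.6, 45.5 and 45.3 in deleted libraries and 40.0, 40.1 and 32.4 in controls. The deleted libraries were nearly equal and all above the controls, of which control 3 was the lowest. The means were 45.1 ± 0.46 in deleted and 37.5 ± 4.41 in control libraries (SD, n = 3 each, exact two-sided permutation p = 0.1, the smallest possible), and the difference of 7.61 segments was 5.06 without control 3 and 4.88 in the 4 libraries. The 10 most abundant members of each library held 41.5%, 39.9% and 40.5% of the family's FPKM in deleted libraries and 44.7%, 44.7% and 56.6% in controls. The number of members at 1 FPKM or more went the other way, with 46, 45 and 38 in deleted libraries and 53, 54 and 49 in controls.

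The order of abundance was more alike within a genotype than between genotypes. Over the 51 members, Spearman rho between libraries was 0.788 to 0.854 among deleted libraries, 0.772 to 0.93 among controls, and 0.503 to 0.747 over the 9 pairs of a deleted with a control library. These values are a description, since the members share libraries and sequence. Libraries also shifted as a whole: control 3 was the lowest control in 43 of the 51 members, and Skiv2l-deleted 3 the lowest deleted library in 38.

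The other heavy chain V segments were lower as well. The 92 Ighv segments of other families summed to 197, 197 and 154 FPKM in deleted libraries and 751, 742 and 554 FPKM in controls, 3.74-fold lower in deleted libraries. Ighv1 made up 47.6%, 42.6% and 40.1% of all Ighv FPKM in deleted libraries and 54.4%, 53.0% and 50.2% in controls. The deleted libraries were all below the controls, and the means differed by −9.05 percentage points (43.5% ± 3.83 in deleted, 52.5% ± 2.15 in control libraries, SD, n = 3 each, exact two-sided permutation p = 0.1, the smallest possible). In the 4 libraries the difference was −9.81 points.

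That difference varied with which other segments were compared, and an effect of their position was not tested. The 27 segments of other families inside the Ighv1 interval summed to 39.3, 37.9 and 31.2 FPKM in deleted libraries and 220, 214 and 155 FPKM in controls, 5.44-fold lower, against 5.34-fold for Ighv1. The 65 segments nearer to the D segments summed to 158, 159 and 122 FPKM in deleted and 531, 528 and 399 FPKM in control libraries, 3.32-fold lower. Of these, Ighv14-2 had 21.3, 20.2 and 22.4 FPKM in deleted and 26.1, 24.0 and 16.8 FPKM in control libraries, and Ighv5-2 had 16.1, 18 and 18.5 FPKM in deleted and 16.7, 11.3 and 9.54 FPKM in control libraries. Both overlapped between genotypes, and they were the most abundant other segments in deleted libraries. Without this pair the other families were 4.5-fold lower and the difference in the Ighv1 share was −4.28 points, with p = 0.2 in the exact permutation test. Set against only the 27 segments inside its own interval, the Ighv1 share differed by 0.0416 points (exact permutation p = 1). These comparisons were chosen after the data had been seen.

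**Figure D4:**
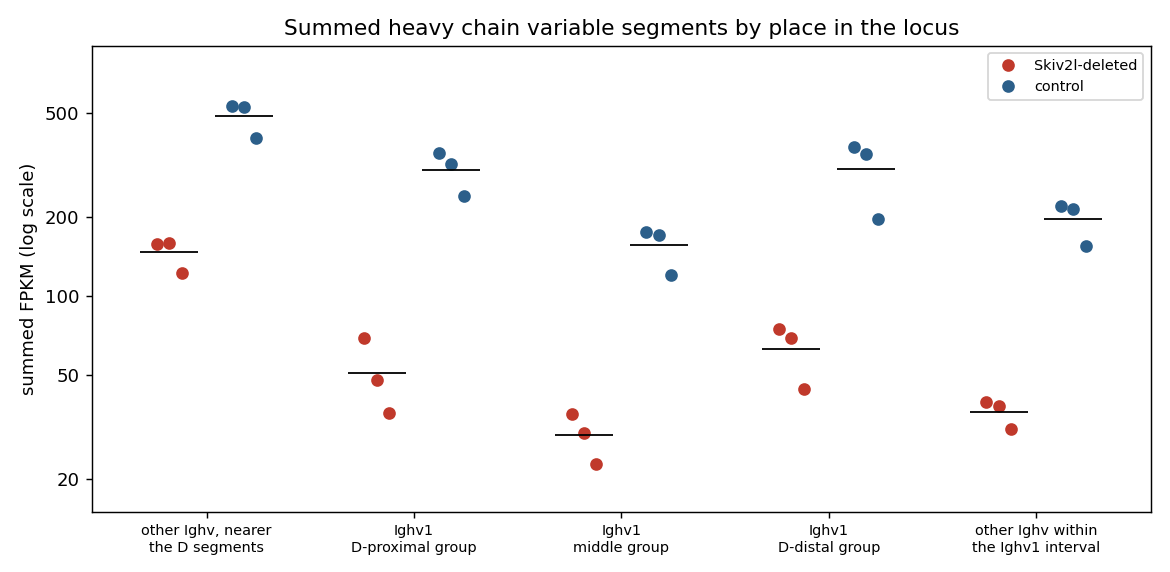
Each point is the summed FPKM of 1 library on a log scale, Skiv2l-deleted (red) left of control (blue), and bars are means of 3, for the 65 other Ighv segments nearer the D segments, the 3 groups of 31 Ighv1 segments, and the 27 other Ighv segments inside the Ighv1 interval. Deleted libraries lay below controls in all 5 places, by 3.32-fold in the first and 4.86-fold to 5.96-fold in the others.

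Constant region genes and cell type markers moved beside the family. Ighm, the constant region of the mu chain, had 2074, 2308 and 2319 FPKM in deleted libraries and 3534, 3188 and 3483 FPKM in controls, 1.52-fold lower in mean (limma adjusted p = 0.0297, called in 1 of 6 fits without a library, with a highest adjusted p of 0.153). Per FPKM of Ighm, the Ighv1 log2 difference was −1.82, a value chosen after the data had been seen. The switched constant genes Igha, Ighg1, Ighg2b, Ighg2c and Ighg3, used by plasma and memory cells, summed to 95.9, 50.8 and 95.7 FPKM in deleted libraries and 542, 478 and 758 FPKM in controls. Ighg2b supplied most of the deleted sums, with 89.3, 47.8 and 90.1 FPKM, against 216, 215 and 281 FPKM in controls. In deleted libraries Ighg2c had 6.19, 3.00 and 5.61 FPKM, Ighg1 had 0.101, 0 and 0 FPKM, and Ighg3 was at 0 in all. Igha had 0.302, 0 and 0.0845 FPKM in deleted and 216, 164 and 380 FPKM in control libraries. Jchain, which joins secreted IgA and IgM chains, had 0, 0.233 and 0.0821 FPKM in deleted and 44.5, 36.9 and 75.2 FPKM in control libraries. Both were near 0 in all deleted libraries and plainly present in all controls.

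Of 20 plasma cell markers, 18 were tested, 7 were lower (Igha, Jchain, Ighg1, Ighg2b, Ighg2c, Ighg3 and Sdc1) and 1 was higher (Mzb1, limma adjusted p = 0.05 when rounded). Igha, Jchain, Ighg1, Ighg2c and Ighg3 were called in all 6 fits without a library, Ighg2b in 5, Sdc1 in 2 and Mzb1 in 1. The sum of the 20 was 771 to 815 FPKM in deleted libraries and 1263 to 1524 FPKM in controls. A split made after the data had been seen left out Jchain and the 5 switched constant genes. The other 14 summed to 681, 720 and 719 FPKM in deleted libraries and 703, 749 and 690 FPKM in controls, which overlapped. Mzb1 was the largest part of this sum, with 342, 336 and 363 FPKM in deleted and 211, 232 and 280 FPKM in control libraries. The overlap therefore does not mean that single markers were unchanged. At an unadjusted limma p below 0.05, 10 of the 18 tested plasma cell markers were lower and 1 higher. Over all genes tested, 9.85% were lower and 15.7% higher at that unadjusted threshold. Among defining members, Tnfrsf17 was at 0 in all deleted libraries and at 0.348, 0.397 and 0.538 FPKM in controls, and Prdm1 was at 0.201, 0.511 and 0.219 FPKM in deleted and 0.492, 0.336 and 0.46 FPKM in control libraries. Both stayed under 1 FPKM and were not tested. Better expressed ones differed. Irf4 (72.1, 67.9 and 79.7 FPKM in deleted, 153, 151 and 90.4 FPKM in control libraries) and Sdc1 (11.8, 7.23 and 9.94 against 24.7, 30.7 and 19.5 FPKM) did not overlap. Xbp1 overlapped, with 42.6, 75.9 and 44.8 FPKM in deleted and 36.4, 39.0 and 53.5 FPKM in control libraries. Of 17 markers of later B cells, 16 were tested, and 12 were lower and 2 higher by limma adjusted p below 0.05. Over all genes tested, 3.87% were lower and 4.97% higher. The 17 summed to 2568 to 2956 FPKM in deleted and 4249 to 4713 FPKM in control libraries. Ighm, whose values are given above, is in this list and supplied most of each sum. Among the 12 lower, Fcer2a, H2-Aa, H2-Ab1 and H2-Eb1 were called in all 6 fits without a library. Spib, Ciita and Il2ra were called in 3 of them, and Cd74, Ms4a1, Cd2, Cd22 and Ighm in 1. The higher 2, Ltb and Cxcr5, were called in 6 and 4. Of 17 pro-B markers, all tested, 9 were higher and 1 lower, with sums of 5687 to 7130 FPKM in deleted and 4081 to 5361 FPKM in control libraries. Among the 9 higher, Igll1 and Bst1 were called in 4 of 6 fits without a library, and Dntt and Vpreb2 in 3. Flt3 was called in 2, and Kit, Rag1, Rag2 and Vpreb1 in 1. The lower one was Cd79a, the gene that drives the Cre, with 367, 368 and 441 FPKM in deleted libraries and 726, 640 and 739 FPKM in controls (log2 fold change −0.84 ± 0.12, limma adjusted p = 0.0123, not called without control 1 or Skiv2l-deleted 1). The labelled cell type was thus present by its markers in all 6 libraries. How far the make-up of the sorted cells entered the Ighv1 difference was not tested. Of 8 T and NK cell markers 2 were tested and 1, Klrb1c, was higher. Of 9 myeloid, 4 erythroid and 3 plasmacytoid dendritic markers tested, 0 were called by limma, and 1, a plasmacytoid dendritic marker, was higher at an unadjusted p below 0.05.

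Genes known to act on the V region did not move as 1 group. Over all genes tested, 4.97% were higher and 3.87% lower by limma adjusted p below 0.05. In a list of 15 genes of the recombinase and of end joining, all tested, 3 were higher and 2 lower. Dntt, which adds nucleotides at the joints, had 781, 559 and 831 FPKM in deleted libraries and 251, 190 and 335 FPKM in controls, with no overlap (log2 fold change 1.5 ± 0.24, limma adjusted p = 0.0151, not called without control 1, Skiv2l-deleted 1 or Skiv2l-deleted 3). The recombinase genes were higher too, Rag1 by 0.76 (limma adjusted p = 0.0489) and Rag2 by 0.46 (0.0401), each called in 1 of the 6 fits that left out a library. Polm, a polymerase of end joining, was lower by −1.91 (limma adjusted p = 0.0301, called in 1 of 6 such fits), and Hmgb2, a cofactor of the recombinase, by −0.74 (0.01, called in 4 of 6). In a list of 24 genes of locus contraction, cohesin and chromatin, 0 were higher and 3 lower: Brwd1, a reader of acetylated histones, by −1.14 (limma adjusted p = 0.0144), the histone methyltransferase Ezh2 by −0.48 (0.0297) and Paxip1 by −0.58 (0.0291). They were called in 4, 1 and 1 of 6 fits without a library. At an unadjusted limma p below 0.05, 0 of the 24 were higher and 5 lower, against 15.7% of all genes higher and 9.85% lower.

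Several regulators named above were not called. Pax5 had 167, 113 and 156 FPKM in deleted libraries and 152, 152 and 197 FPKM in controls (limma adjusted p = 0.538). Yy1 had 31.1, 25.9 and 32.3 FPKM in deleted and 30.1, 33.6 and 23.7 FPKM in control libraries (limma adjusted p = 0.922). Both overlapped between genotypes. Of 6 genes of the IL-7 receptor and its signalling, 2 were higher, the receptor chain Il2rg (0.67, limma adjusted p = 0.0119) and the kinase Jak3 (0.80, 0.0163), each called in 4 of 6 fits without a library. The share of all genes called higher was 4.97%. At an unadjusted limma p below 0.05, 4 of the 6 were higher and 0 lower, against 15.7% of all genes higher and 9.85% lower. The receptor gene Il7r had 116, 120 and 115 FPKM in deleted and 198, 133 and 111 FPKM in control libraries, which overlapped (limma adjusted p = 0.453). Of 7 factors of V promoters, among them the octamer coactivator Pou2af1, 0 were called by limma and 1 was higher at an unadjusted p below 0.05, with a log2 fold change of −0.34 for Pou2af1 and a median of −0.0553 over the 7. These lists describe levels of messenger RNA of the factors and not their activity.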

How the data were processed

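Strand-specific mRNA libraries were made from column-purified RNA of pro-B cells sorted from the bone marrow of 6 mice, per the labels' protocols. For each mouse the authors deposited a table of genes with FPKM, TPM and mean coverage, per the file headers, with coordinates in GRCm38, a build taken from the submitters' processing notes. The sources used here do not name the aligner or the quantifier, or say how reads matching several copies, or strand, were treated. The tables hold no read counts. Depth was taken from the deposited coverage multiplied by transcript length, in aligned bases.

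FPKM was summed per gene identifier, and the 7 to 9 identifiers per table on several lines include 0 members. All 93 members had the same identifier and coordinates in GENCODE release M21, which gave biotypes and sequences. The test for single genes was limma 3.58.1 under R 4.3.3, a linear model of log2(FPKM + 1) on genotype with a mean-variance trend in eBayes. It was run on the 13539 genes that reached 1 FPKM in 3 or more libraries out of 6. Benjamini-Hochberg adjusted p below 0.05 was called. Fits that left out a library kept these genes. The fit was tested on simulated data. Sums and shares were compared by exact two-sided permutation tests. A value of 0 is a value as listed. Identity was the edit distance over the last 290 bases of the transcript.

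Values are named for the 10 most abundant members, the 10 with the most negative called change, the 3 most abundant of each position group and the 3 most abundant pseudogenes. The members at the ends and the tested members not called (given by range) were also included, and segments outside this rule are said to be. The members and all gene lists were chosen with earlier results of these data known. Alternatives changed the pseudocount, filter, unit, scaling, variance model, replicate block and libraries.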

Additional observations from a re-analysis of the deposited data

How the results depend on the processing

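The count of lower Ighv1 members, 35 of 49, was 32 to 36 of 49 under other pseudocounts (0.1 and 0.5), TPM, rescaling without immunoglobulin and T cell receptor genes, quantile normalization, no variance trend, robust moderation and the replicate block, and 33 of 51 with a filter on a mean of 1 FPKM. It was 17 of 75 with every gene above 0 in at least 1 library, where 28354 genes were adjusted together and 232 were lower. Leaving out 1 library gave 16 to 44 of 49, with 115 to 757 lower calls over all 13539 genes. No alternative gave a higher member. In that wider fit 60 of the 75 log2 fold changes were below 0, with a median of −1.21. With 1 library left out the family's log2 difference ranged between −2.64 and −2.21, the D-distal share difference between 2.49 and 5.69 points and the Ighv1 share difference between −11.1 and −7.38 points. Set against other segments of its own interval, the Ighv1 share difference was 0.0416 points, turned in sign. Correlations of the deviations of same-numbered libraries from their genotype means were 0.0939, −0.428 and −0.355. Skiv2l-deleted 2 and control 3, both high in myeloid markers, gave 0.557. Deviations from a mean of 3 libraries depend on each other. These correlations therefore cannot settle whether the shared replicate numbers mark pairs. With the numbers as a replicate block 32 members were lower, and the smallest p for the family sum was then 0.25. For 22 named members under 17 alternatives each, 341 values kept direction and call, 27 lost the call, 5 gained one and 1 turned: Ighv1-11, at a log2 fold change of 0.033 without control 1 and between −0.92 and 0.033 over the 6 fits without a library. The causes were not tested. Depth limits segments under 1 FPKM, on which 612 to 842 aligned bases stood for 1 FPKM.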
